A study of Mus musculus with 16 samples.

Results

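The genes of the cytosolic ribosomal proteins were followed in the spleen and thymus of EMP3 mutant mice. The members were the array probes whose gene symbol in the platform annotation starts with Rpl, Rps or Rplp and a digit, without the Rps6 kinases and without pseudogene symbols. This rule found 92 of 20794 probes, which name 61 of the 9030 genes named on the array. Of these probes 55 belong to 38 genes of the large subunit and 36 to 22 genes of the small subunit. The remaining probe is annotated to Rps19bp1, a protein that binds Rps19 and is not itself part of the ribosome. The rule also took in close relatives of standard subunits, namely Rpl22l1, Rpl39l, Rpl36al, Rps27l and Rpl7l1.

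RNA came from 4 male EMP3 mutant mice aged 17 weeks, each of which gave both spleen and thymus. On 16 two-colour arrays it was hybridised against RNA pooled from male wild-type mice of the same age and tissue, with 2 arrays of exchanged dye for each mouse and tissue. The labels do not say what the mutation is, on which strain background it lies, or whether the wild types were littermates. The series title and the design text speak of brain where the sample labels give spleen, and the labels were followed. They list 4 mice in the pool, while the labelling protocol speaks of 6. The deposited values were log ratios, read here as log2 and as mutant over pool. The labels state neither. The wording of the design makes the mutant the likely numerator, and with the pool as numerator all signs given here would turn. Each mouse counted as 1 replicate, with its 2 arrays averaged. The thymus pair of mouse 2 was not used, since its arrays were near mirror images of each other (r = -0.922 over all probes), so spleen had n = 4 mice and thymus n = 3. Levels of a tissue's own marker genes cannot be read from ratios within 1 tissue, so the tissue labels were not checked.

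Whether the sign of the arrays with the mutant in Cy3 had already been turned before deposit is not stated, and it was taken as turned. With the sign of those arrays turned again, 0 of the 90 tested ribosomal protein probes passed the threshold in spleen (limma, adjusted p under 0.05, as throughout), against 18 as deposited. Over all probes that count was 1, against 5086. Over all probes, the correlation between both arrays of a mouse was 0.0518 to 0.424 in spleen and, mouse 2 apart, -0.44 to -0.249 in thymus. For Emp3 itself, 2 probes were at 0.20 ± 0.25 and 0.27 ± 0.38 in spleen (SD, n = 4; adjusted p = 0.204 and 0.214 in limma). The part of the gene that the mutation changes is not stated, so they do not check the labels.

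As background, a ribosome joins a small subunit, which reads the messenger RNA, to a large subunit, which forms the peptide bonds and holds the exit tunnel of the new protein. Most of its proteins are needed in equal numbers, and their messenger RNAs are among the most abundant of a cell. These messenger RNAs typically start with a C followed by a run of pyrimidines, the terminal oligopyrimidine tract, through which the kinase mTOR and the RNA-binding protein Larp1 control their translation. Such control acts on protein synthesis, which an array of RNA does not measure. Spleen and thymus are lymphoid organs, and in mice the spleen also makes red blood cells. In humans, loss of 1 copy of any of several ribosomal protein genes causes Diamond-Blackfan anaemia, and in mice Rpl22 is needed for the development of alpha-beta T cells.

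The starts of 7 member genes are shown because the results turn on their probes and because a pyrimidine run can be read in most of them. Each line is a 30-base window, 15 bases before and 15 from the start of the RefSeq transcript, in build GRCm38.p6, and capitals mark its longest run of C and T. In Rpl31 and Rpl11 that run lies wholly before the start and so outside the RefSeq transcript.
Rps6, chr4:86857353-86857382, minus strand: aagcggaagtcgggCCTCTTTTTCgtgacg
Rps9, chr7:3704026-3704055, plus strand: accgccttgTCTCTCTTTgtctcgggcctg
Rpl13a, chr7:45128731-45128760, minus strand: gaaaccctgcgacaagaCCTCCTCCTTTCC
Rpl31, chr1:39367836-39367865, plus strand: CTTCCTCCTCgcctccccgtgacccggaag
Rpl28, chr7:4792950-4792979, plus strand: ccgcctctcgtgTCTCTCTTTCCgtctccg
Rpl11, chr4:136053379-136053408, minus strand: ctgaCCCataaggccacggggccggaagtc
Rpl35, chr2:39005117-39005146, minus strand: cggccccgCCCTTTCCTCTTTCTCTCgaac
The promoter table held 53 of the 61 member genes, some with several starts. A run of 8 or more C and T, read in the direction of transcription, lay in 23 of 61 member windows (37.7%), against 12% of the 32851 windows of all genes. It was counted anywhere in the window, also where it lay wholly before the start. Among the member genes in the table, the run was found for 10 of the 15 with a probe past the spleen threshold and for 13 of the other 38. A gene counted as having the run if any of its starts had it, and as past the threshold if any of its probes passed. The contrast between these counts was not tested. As described next, Rps6 probe 7026, Rps9 probe 6665 and Rpl13a probe 1179 passed the spleen threshold on the low side. Rpl31 probe 13029, Rpl28 probe 4937 and Rpl11 probe 19186 passed on the high side. The other probes of Rps6, Rps9, Rpl13a and Rpl11 did not pass, so a side belongs to a probe and not to its gene. Genes with a passing probe on either side include some with a long run.

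In spleen the ribosomal protein probes lay on both sides of 0. Their median log2 ratio was 0.05, with 50 of 90 tested probes above 0, and over all 20127 tested probes the median was 0.04, with 57.4% above 0. Past an adjusted p of 0.05 in limma were 18 of 90 member probes, against 25.3% of all probes tested. Of these 18, 8 were higher in the mutants, against 13.4% of all probes, and 10 were lower, against 11.9%. The mean ratios of the members ran from -0.97 to 0.60, with an SD over probes of 0.27, against 0.31 over all probes. The median of the members differed from that of their array by -0.028 to 0.056 on the 8 spleen arrays. The pool is 1 control sample, so the test leaves out the spread between wild-type mice. With a pool variance added on the assumption that wild types vary like mutants, 8 of 90 members passed, against 8.39% of all probes.

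The lowest member in spleen was probe 7026, annotated to Rps6, the small-subunit protein that S6 kinases phosphorylate when mTOR is active. It had log2 ratios of -1.34, -0.95, -1.09 and -0.50 in mutant mice 1 to 4. All 4 mice were low, and so were all 8 single arrays, from -1.39 to -0.31. The mean was -0.97 ± 0.35 (SD, n = 4), or 1.96-fold lower, with an adjusted p of 0.00628 in limma. The second Rps6 probe, 15660, was at 0.15, 0.02, 0.04 and -0.01 in the same mice. It lay near 0 in every mouse, with a mean of 0.05 ± 0.07 (SD, n = 4) and an adjusted p of 0.600 in limma.

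Further lower probes of the small subunit were those of Rps9, Rps15a, Rps16, Rps19 and Rps4x. Probe 6665 for Rps9, whose yeast counterpart bears on the accuracy of decoding, was at -0.46, -0.54, -0.56 and -0.65 in mice 1 to 4. Its mean of -0.55 ± 0.08 (SD, n = 4) passed with an adjusted p of 0.00419 in limma. The mice lay close together, and all 8 arrays were below 0, while the second Rps9 probe, 16495, had a mean of 0.00 ± 0.07. Probe 15502 for Rps15a was at -0.43, -0.48, -0.35 and -0.47 (mean -0.43 ± 0.06, SD, n = 4). Probe 19516 for Rps16, whose tail reaches the site that holds the peptidyl-tRNA, was at -0.48, -0.48, -0.33 and -0.33 (mean -0.41 ± 0.09, SD, n = 4). For both, all 8 arrays were below 0. Probe 9354 for Rps19, the gene most often mutated in human Diamond-Blackfan anaemia, was at -0.58, -0.02, -0.88 and -0.50 (mean -0.49 ± 0.36, SD, n = 4). Mouse 2 was thus near 0, and the adjusted p in limma was 0.0463. Without mouse 1, mouse 3 or mouse 4, Rps19 missed the threshold, with adjusted p from 0.0991 to 0.127 in limma. It also missed it in the fit of both tissues together (adjusted p = 0.141), with placeholders kept (0.0637) and with the pool variance added (0.179). Probe 6804 for Rps4x, the X-linked small-subunit gene, was at -0.09, -0.33, -0.35 and -0.31 (mean -0.27 ± 0.12, SD, n = 4), with mouse 1 nearest to 0. It missed the threshold without mouse 2, 3 or 4 (adjusted p = 0.102 to 0.135 in limma).

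On the large subunit 4 probes were lower. Probe 1179 for Rpl13a, which in human cells can leave the ribosome and silence inflammatory messenger RNAs, was at -0.53, -0.49, -0.43 and -0.68 in mice 1 to 4. Its mean was -0.53 ± 0.11 (SD, n = 4; limma, adjusted p = 0.00509), and all 8 arrays were below 0. Probe 3534 for Rpl14 was at -0.41, -0.46, -0.36 and -0.46 (mean -0.42 ± 0.05, SD, n = 4), again with all 8 arrays below 0. Probe 16343 for Rpl35, which sits at the exit tunnel, was at -0.56, -0.31, -0.40 and -0.55 (mean -0.45 ± 0.12, SD, n = 4). Probe 15503 for Rpl22 was at -0.70, -0.53, -0.23 and -0.25 (mean -0.43 ± 0.23, SD, n = 4), with an adjusted p of 0.0264 in limma. Its mouse averages were all low, but its single arrays were not: mouse 1 had 0.49 with the mutant in Cy5 and -1.89 with the mutant in Cy3. Without mouse 2 or mouse 4 it missed the threshold (adjusted p = 0.0969 and 0.0567 in limma).

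Among the 8 higher probes 6 were of the large subunit. Probe 13029 for Rpl31, a protein at the exit tunnel, was at 0.49, 0.68, 0.45 and 0.50 in mice 1 to 4. Its mean of 0.53 ± 0.10 (SD, n = 4), or 1.44-fold, passed in limma (adjusted p = 0.00505), and all 8 arrays lay above 0, from 0.31 to 0.88. On the small subunit, probe 19618 for Rps14, whose single-copy loss causes an anaemia in a human myelodysplastic syndrome, was at 0.55, 0.48, 0.51 and 0.44 (mean 0.49 ± 0.05, SD, n = 4). Its adjusted p was 0.0044 in limma. The second Rps14 probe, 19677, had a mean of -0.13 ± 0.12 (SD, n = 4), with all 4 mice below 0 and an adjusted p of 0.215 in limma.

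Rpl28 (probe 4937) had a mean of 0.43 ± 0.21 (SD, n = 4), with mouse 3 at 0.74 and the others from 0.27 to 0.38. Mouse 3 had 1.405 with the mutant in Cy5 and 0.074 with the mutant in Cy3. Rpl11 (probe 19186), which together with Rpl5 can bind the p53 regulator Mdm2, was at 0.43, 0.28, 0.60 and 0.35 (mean 0.42 ± 0.14, SD, n = 4). Its mouse 3 had 0.978 with the mutant in Cy5 and 0.215 with the mutant in Cy3. The second Rpl11 probe, 12957, had a mean of -0.04 ± 0.13 (SD, n = 4; limma, adjusted p = 0.688). Rpl27a (probe 3495) had a mean of 0.30 ± 0.13 (SD, n = 4). Rps26 (probe 6380), which lines the path of the leaving messenger RNA, had a mean of 0.30 ± 0.11 (SD, n = 4). All 8 arrays were above 0 for each of probes 4937, 19186, 3495 and 6380. Rpl35 had a pair of higher probes, 7695 with a mean of 0.33 ± 0.03 and 18263 with 0.25 ± 0.07 (SD, n = 4).

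The neighbours of some of these probes in ID order moved with them. The running median over 99 neighbouring IDs averaged 0.27 at the Rps26 probe and 0.19 at Rpl35 probe 18263. With it removed, Rps26 was at 0.03 (adjusted p = 0.724 in limma) and that Rpl35 probe at 0.06 (0.520). Rpl27a, at 0.27 (adjusted p = 0.0573 in limma), and Rpl22 probe 15503, at -0.33 (0.0712), also missed the threshold with it removed. What this trend stems from was not tested. Rpl28, Rpl27a, Rps26 and both higher Rpl35 probes missed the threshold without mouse 2 and without mouse 4 (adjusted p = 0.0577 to 0.133 in limma). Rpl27a did so also without mouse 1, Rps26 without mouse 3 and Rpl35 probe 18263 without either of those mice (adjusted p = 0.0514 to 0.0683).

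**Figure D1:**
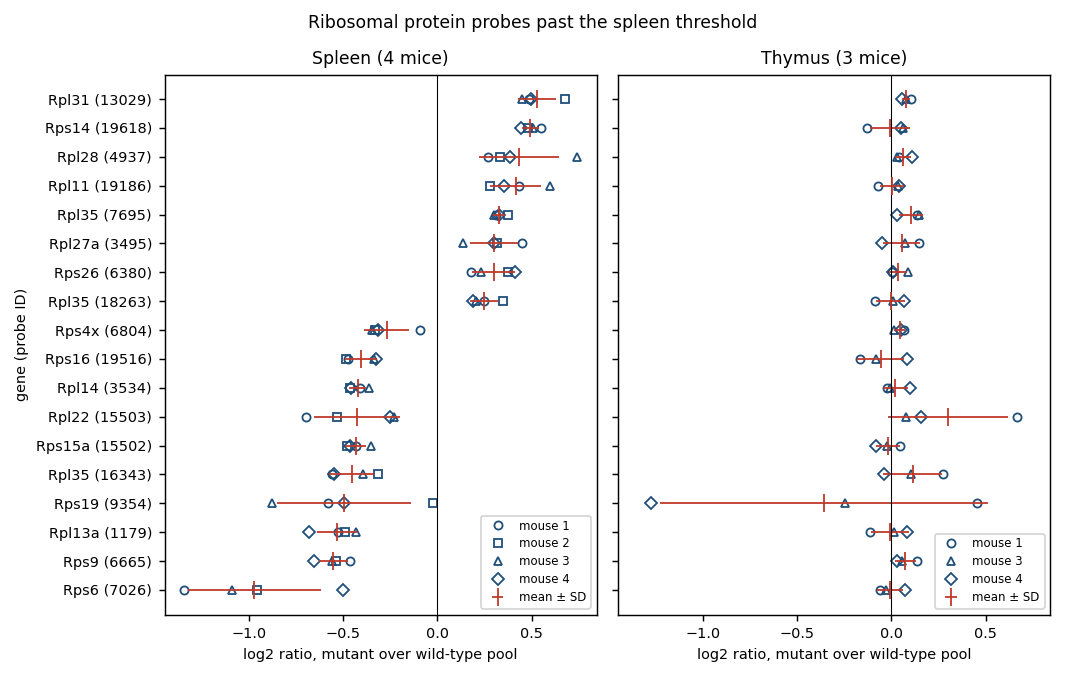
Mean log2 ratio (mutant over wild-type pool) of the 2 arrays of each mouse for the 18 ribosomal protein probes past the spleen threshold, in spleen (left, 4 mice) and thymus (right, 3 mice); red marks are means ± SD. In spleen the probes fall into 8 higher and 10 lower ones, with Rps6 probe 7026 lowest at -0.97, and in thymus most lie near 0.

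Of the 18 probes, 8 passed under each alternative that was fitted per probe other than the turned sign of the Cy3 arrays, including the omission of each mouse and the added pool variance. They were those of Rpl31 and Rps14 on the high side and of Rps6, Rps9, Rps15a, Rpl13a, Rpl14 and Rpl35 (probe 16343) on the low side. The same sign on all 8 arrays, so with either dye, was found for 15 of the 18. Over the members with 8 values it was found for 16 of 87, against 19.2% of all probes. By sign this was 9 above 0, against 8.92% of all probes, and 7 below 0, against 10.3%. The nearest probe outside the threshold was that of Rps10, at 0.26 ± 0.16 (SD, n = 4) with an adjusted p of 0.0664 in limma.

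The large and the small subunit were compared as groups. Large-subunit probes had a median spleen log2 ratio of 0.08, with 34 of 53 tested above 0, and small-subunit probes one of -0.003, with 16 of 36 above 0. Over all probes the median was 0.04. Past the threshold in limma were 6 higher and 4 lower large-subunit probes of 53, and 2 higher and 6 lower small-subunit probes of 36, beside 13.4% higher and 11.9% lower over all probes. As shares these were 11.3% and 7.55% of the large-subunit and 5.56% and 16.7% of the small-subunit probes, and the contrast between the subunits was not tested. The large minus small difference in medians was 0.08, and it was 0.05, 0.11, 0.07 and 0.10 in mice 1 to 4. All 4 mice were above 0, with an SD between mice of 0.02, and no test was made over the members. On single spleen arrays of mice 1 to 4 it was 0.12, 0.07, 0.13 and 0.10 with the mutant in Cy5, and -0.02, 0.11, -0.02 and 0.13 with the mutant in Cy3. In mice 1 and 3 it was thus above 0 with the mutant in Cy5 alone, and in mice 2 and 4 with either dye. In thymus the medians were 0.01 for the large and -0.01 for the small subunit, and the difference was -0.002, 0.02 and -0.01 in mice 1, 3 and 4.

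**Figure D2:**
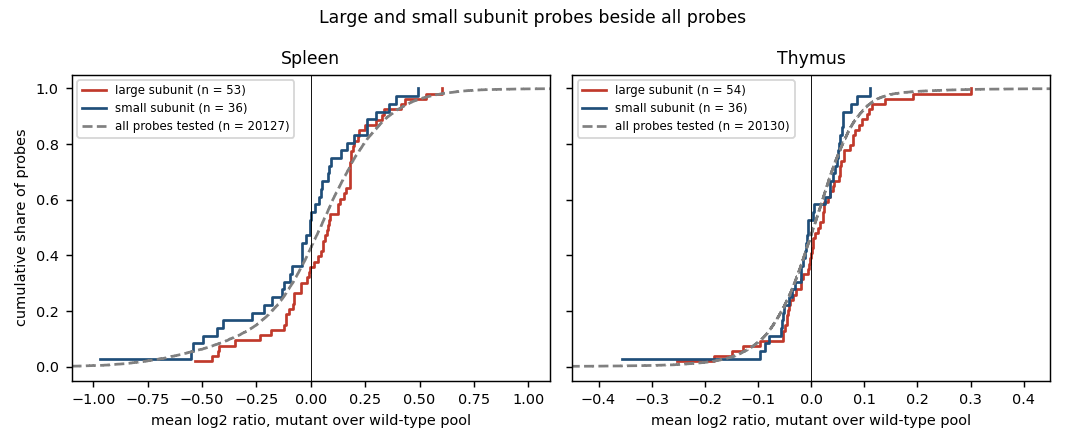
Cumulative share of probes by mean log2 ratio (mutant over wild-type pool) in spleen (left) and thymus (right), for large-subunit probes, small-subunit probes and all probes tested. In spleen the large-subunit curve lies to the right of the small-subunit curve around 0, with medians of 0.08 and -0.003, and the median of all probes, 0.04, lies between them. The upper quartile of all probes, 0.20, lies above those of the large (0.18) and small (0.10) subunit. The thymus axis is narrower.

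The stalk of the large subunit, which recruits the elongation factors, is built from Rplp0, Rplp1 and Rplp2. Rplp0 had 2 probes with close means, 0.09 ± 0.03 and 0.08 ± 0.05 in spleen (SD, n = 4). Rplp1 was at 0.20 ± 0.20 and Rplp2 at 0.05 ± 0.16 (SD, n = 4). None passed the threshold in limma (adjusted p from 0.159 to 0.701). The relatives of standard subunits did not pass either. Rpl22l1, the paralog of Rpl22, was at 0.39, 0.13, 0.12 and 0.01 in mice 1 to 4, on the other side of 0 from the Rpl22 probe past the threshold. It lay on the same side as the second Rpl22 probe, 15321, which had a mean of 0.22 ± 0.20 (SD, n = 4; limma, adjusted p = 0.128). Rpl39l, the testis relative of Rpl39, had a mean of 0.13 ± 0.10, Rpl36al 0.13 ± 0.15, Rps27l -0.04 ± 0.09 and Rpl7l1 -0.10 ± 0.06 (SD, n = 4). Rps19bp1 was measured in 3 mice, at -1.16, 0.02 and 0.46, and the spread covered both signs. Of the member probes not named here by rule, 44 were tested in spleen, with means from -0.54 to 0.60, and none passed in limma. The highest of them, that of Rpl7a at 0.60 ± 0.63 (SD, n = 4, named after its value was seen), had an adjusted p of 0.105.

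Probes annotated to 1 gene were then set against each other. Of the 61 genes 23 had 2 or more probes, and 22 had 2 or more tested in spleen. Of these 22, 9 had at least 1 probe past the threshold, in 0 genes did every tested probe pass in 1 direction, and in 1 gene, Rpl35, probes passed in both directions. Over all probes of the array 25.3% passed. The same counts per gene were not made over the other genes, so nothing particular to this family is read from them. Rpl35 probe 16343 was below 0 on all 8 spleen arrays, and probes 7695 and 18263 were above 0 on all 8. The widest gap was that of Rps6, 1.02 on the log2 scale. It was followed by Rpl35 with 0.78, Rpl22 with 0.65, Rps14 with 0.63, Rpl14 with 0.61 and Rps9 with 0.55. At the other end were Rplp0 with 0.01, Rps28 with 0.06 and Rps13 with 0.08.

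Across the 39 pairs of probes of 1 member gene, the median gap was 0.21, and 18 pairs had the same sign and 21 opposite signs. Over the 4797 pairs of all genes the median gap was 0.26, with 50.4% of the same sign. The SD between probes of 1 member gene was 0.28, and the SD over all these probes was 0.27, so in spleen a shared gene name went with no closer values. This was not particular to the members: over all genes with several tested probes the same SDs were 0.297 and 0.303 in spleen, and both were 0.083 in thymus. In thymus the SD between probes of 1 member gene was 0.07 and that over all these probes 0.08, with 24 of 40 pairs of the same sign, against 49.2% for all genes. Probe sequences were not used here, and cross-hybridisation with the many processed pseudogenes of this family was not tested. Each value above therefore stands for a probe that carries the gene's name.

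Genes with 3 or more probes show the spread in detail. Rps21 had 5 probes, with spleen means of 0.39, 0.36, 0.08, -0.04 and -0.09. Its 2 highest probes varied between mice, from -0.03 to 0.82 for probe 13009 and from -0.05 to 0.78 for probe 6549, while probe 15960 stayed within 0.07 to 0.10 in 4 mice. None of the 5 passed in limma (adjusted p from 0.106 to 0.734). Rps26 had its 3 probes on 1 side, at 0.30, 0.20 and 0.17, and 1 of them passed. Rpl4, whose long loop reaches into the exit tunnel, had 3 probes at 0.22, 0.06 and 0.06, none past the threshold. Rpl8 had 3 probes at 0.09, -0.08 and -0.12. Its probe 19230 shows what the average over dyes can hide: in mouse 1 it was at -2.65 with the mutant in Cy5 and at 3.08 with the mutant in Cy3. Rpl14 had 2 tested probes, at -0.42 and 0.18, and 1 more, 13718, with no complete pair of arrays in spleen. The probe 8891 of Rpl30 had both arrays in 2 mice only and was not tested in spleen.

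**Figure D3:**
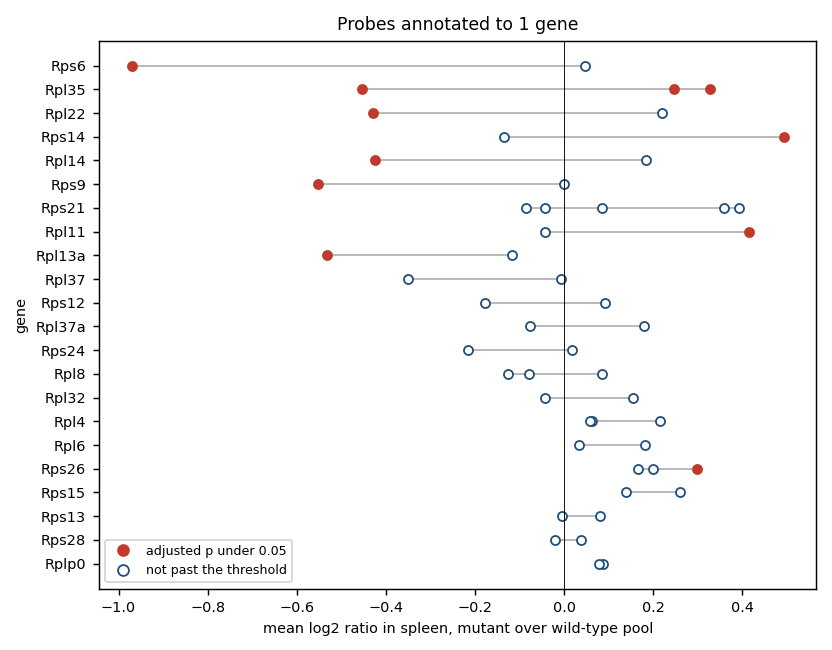
Mean spleen log2 ratio (mutant over wild-type pool, 4 mice, 3 for 1 Rpl8 probe) of each tested probe for the 22 genes with 2 or more tested probes, sorted by the gap between lowest and highest; filled red points passed an adjusted p of 0.05. Rps6 has the widest gap, 1.02, and Rpl35 has filled points on both sides of 0.

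**Figure D4:**
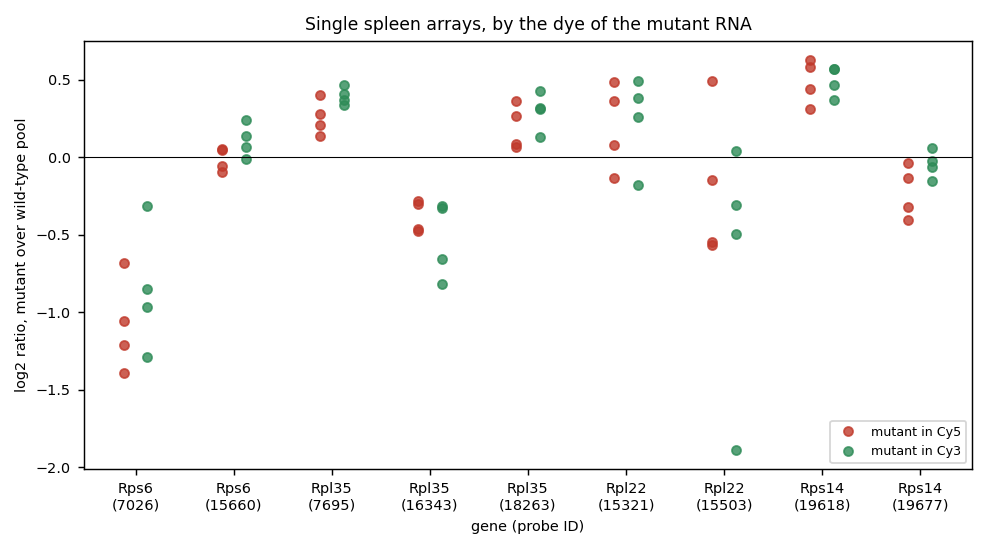
Log2 ratio (mutant over wild-type pool) on the 8 single spleen arrays for all probes of Rps6, Rpl35, Rpl22 and Rps14, coloured by the dye of the mutant RNA (Cy5 red, Cy3 green). The Rps6 probe 7026 lies below 0 with either dye, from -1.39 to -0.31, and the arrays of Rpl22 probe 15503 run from -1.89 to 0.49.

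In thymus no ribosomal protein probe passed the threshold. Limma called 0 of 90 tested members, against 0% of all 20130 probes, and the lowest adjusted p among the members was 0.866. At an unadjusted p of 0.05, 3 of 90 members passed, against 3.6% of all probes. In the fit of both tissues together the counts were again 0. The ratios were small: the median was 0.0043 for the members and 0.0045 over all probes, and the SD over probes was 0.08 for the members and 0.08 over all probes. No member had the same sign on all 6 arrays of the 3 mice, against 2.02% of all probes. Over all probes, thymus arrays of different mice correlated at 0.144 to 0.393 with the mutant in the same dye and at -0.32 to -0.142 with it in opposite dyes. Averaging the 2 arrays of a mouse thus reduces what the arrays of 1 dye share. With the sign of the Cy3 arrays turned, limma likewise called 0 of 90 members and 0 of all probes in thymus. A dye effect and an unturned sign cannot be told apart here.

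The thymus members with the smallest p that had 1 sign in all mice all had an adjusted p of 0.866 in limma, and with 3 mice their values are given as a description. Rpl22 probe 15503 was at 0.66, 0.08 and 0.16 in mice 1, 3 and 4, with mouse 1 far above the others. Rpl5, which with Rpl11 can bind Mdm2, was at 0.17, 0.04 and 0.12. Rpl35 probe 7695 was at 0.14, 0.15 and 0.03, and Rpl31 at 0.10, 0.08 and 0.06. These 4 probes lay above 0 in each of the 3 mice. Below 0 were Rpl30 probe 14757 (-0.11, -0.19 and -0.09), Rpl7 (-0.27, -0.10 and -0.08), Rps18, a protein of the head of the small subunit (-0.13, -0.10 and -0.05), and Rpl36al (-0.05, -0.03 and -0.08).

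Spleen was set against thymus in 1 fit of both, without the pairing of tissues by mouse. That fit gives both tissues 1 spread per probe. The median SD between mice over the members was 0.14 in spleen and 0.08 in thymus, so the spleen spread is understated in it for many probes. Of 89 members tested, 12 differed between spleen and thymus in limma, 13.5%, against 13.9% of all probes. In 3 of them the spleen ratio was higher, against 5.91% of all probes, and in 9 it was lower, against 8.04%. The same mice gave both tissues, and with the mouse as a block 0 of 89 passed, with 19 at an unadjusted p under 0.05 and a lowest adjusted p of 0.0538 in limma. Without mouse 3 and without mouse 4 the count was also 0, and with the pool variance added it was 1.

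The 6 members with the smallest p for the difference were, in order, Rps9 probe 6665 (spleen minus thymus -0.63 ± 0.08, SE), Rps14 probe 19618 (0.50 ± 0.08), Rpl14 probe 3534 (-0.45 ± 0.07), Rpl13a probe 1179 (-0.53 ± 0.09), Rps15a probe 15502 (-0.41 ± 0.08) and Rpl31 probe 13029 (0.45 ± 0.08). Without the block, limma gave them adjusted p-values of 0.00486 to 0.0119. Their thymus means were 0.07, -0.01, 0.02, -0.01, -0.02 and 0.08 in the same order. Each is a mean over 2 arrays of opposite dye that correlated below 0 in every thymus mouse, so small thymus means and the differences from spleen that rest on them cannot be told apart from opposite signs on the arrays averaged. Among the 89 members Rps6 probe 7026 had the largest difference in size, -0.97 ± 0.18 (SE), with a spleen mean of -0.97 and a thymus mean of -0.01.

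Emp3 itself lies on a chromosome that carries several ribosomal protein genes, and their probes were looked at after the values had been seen. Of 12 tested member probes on that chromosome 7 passed the threshold in spleen, 2 higher (Rpl27a and Rpl28) and 5 lower (Rpl13a, Rps9, Rps15a, Rps16 and Rps19). On the other chromosomes 11 of 78 passed. Over all named probes the share was 26% on the chromosome of Emp3 and 25.7% elsewhere. In RefSeq's gene order Rpl13a is the nearest of them to Emp3, with 54 protein-coding genes between, and its 2 probes were at -0.53 and -0.12. The 7 probes lay on both sides of 0, and no test was made because the split was chosen after the values were seen.

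Other genes of the translation apparatus were counted from lists, with the same test, beside 13.4% higher and 11.9% lower over all probes in spleen. No list was tested against that share, and nothing particular to a list is read from its count. Of 72 tested probes for proteins of the mitochondrial ribosome, a separate ribosome inside that organelle, 9 were higher and 8 lower in spleen, with a median of 0.03. Mrpl49 had the smallest p among them, at 0.92 ± 0.13 (SD, n = 4, adjusted p = 0.00401 in limma). Of 48 probes whose symbols start with Eif, for initiation factors and some proteins that act on them, 7 were higher and 2 lower, with a median of 0.14, and among them Eif2b2, of the factor that recharges the initiator complex, was at 0.38 ± 0.04 (SD, n = 4). Of 16 probes whose symbols start with Eef, for elongation factors and methyltransferases that act on them, 3 were higher and none lower in limma. Among the 3 were Eef2, the translocase, at 0.66 ± 0.04, and the methyltransferase gene Eef1akmt4, at 0.56 ± 0.13 (SD, n = 4). Of 40 probes for ribosome biogenesis, 2 were higher and 7 lower. Nop10, of the particles that modify ribosomal RNA, was at -0.64 ± 0.07 and Ubtf, a transcription factor for ribosomal DNA, at -0.56 ± 0.13 (SD, n = 4).

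Of 21 probes for regulators such as mTOR pathway genes, Myc and Max, 3 were lower and none higher in limma, beside the same shares of all probes, with Tsc1, an inhibitor of mTOR signalling, at -0.64 ± 0.11 (SD, n = 4). Of 5 probes for the S6 kinase family 1 was higher, that of Rps6kc1 at 0.29 ± 0.16 (SD, n = 4). Rpsa and Fau, ribosomal protein genes whose symbols fall outside the rule, were at -0.24 ± 0.19 and 0.07 ± 0.17 (SD, n = 4) and did not pass in limma (adjusted p = 0.0955 and 0.579). In thymus 0 probes of these lists passed, as on the array as a whole.

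Markers of the cells of the 2 organs were counted in spleen beside the same 25.3% of all probes past the threshold. Past it in limma were 0 of 4 B cell probes, 1 higher and 2 lower of 10 T cell probes, 0 of 3 plasma cell probes, 0 higher and 2 lower of 9 erythroid probes, and 1 higher and 2 lower of 12 proliferation probes. In the order of those lists the median log2 ratios were 0.12, -0.02, 0.04, -0.04 and 0.06. The erythroid probes past the threshold were those of Hba-a1, at -0.52 ± 0.03, and Klf1, at -0.26 ± 0.13 (SD, n = 4). Among the proliferation probes the 2 with the smallest p were Mcm5, at -0.73 ± 0.11, and Rrm2, at -0.68 ± 0.16 (SD, n = 4), while 1 other probe of that list was higher. The T cell probes with the smallest p went opposite ways, Cd2 at 0.41 ± 0.09 and Thy1 at -0.30 ± 0.15 (SD, n = 4). The part of these markers in the ribosomal protein values was not tested. In whole-organ RNA, fewer cells of a type and less RNA per cell cannot be told apart.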

How the data were processed

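The deposited file holds log ratios of the 2 channels of each array, made by the authors and read here as log2. The log base, numerator, normalization, scanner and software are not given in those sources. RNA input was 20 µg, made into cDNA with indirect dye coupling, per the labels' protocols. A constant of 15.1 to 16.9 in size, held by 25 to 137 probes per array, was read as a placeholder and set to missing (values over 8 in size); 5 such values fell on members. On an array 20046 to 20639 probes were then measured. The files give no intensities, and precision is limited by how many arrays and mice there were.

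A probe was tested with at least 3 mice. Ratios were tested against 0 with limma 3.58.1 in R 4.3.3, each tissue fitted alone. The difference between tissues was tested in 1 fit of both. Benjamini-Hochberg adjustment was over all probes at 0.05. The fits were also run on simulated data with independent mice. Those data held no pool error, dye effect or trend between neighbouring IDs, so they do not check the fits against these. Deviations of the same mouse in both tissues correlated at -0.057, -0.002 and -0.073 for mice 1, 3 and 4; the pairing comes from the mouse identifiers in the labels. Exact tests over 4 or 3 mice cannot go below p = 0.125 or 0.25 and were not used. All 92 member symbols matched the RefSeq table of GRCm38.p6 by gene number; sequences are RefSeq's. Members, lists and tests were chosen with earlier results of these data known. Probes were named by rule: those past the threshold in spleen, the smallest p in thymus and for the difference, genes with 3 or more probes, the stalk, and relatives of subunits; of other lists the 2 smallest p in spleen at most. Alternatives were the orientation of the Cy3 arrays, a joint fit, centring, placeholders, the mirrored pair, the running median, gene means, pool variance, complete probes, omission of each mouse and the mouse block. No probe carried a symbol of a ribosomal protein pseudogene.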

Additional observations from a re-analysis of the deposited data

Results flagged for a closer look

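In 4 of the 44 named member probes with 4 spleen mice, 1 mouse lay far from the other 3, and chance alone gives about 1 in 20. The same count was not made over all probes, and no excess is read from it. Mouse 1 was at -0.09 at the Rps4x probe 6804, mouse 4 at -0.28 at the Rps18 probe 199, mouse 2 at -0.89 at the Rpl8 probe 19230 and mouse 3 at -0.018 at the Rpl39l probe 14950. The Rpl8 value averages arrays of opposite sign, -2.22 with the mutant in Cy5 and 0.44 with the mutant in Cy3.

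The test of the difference between the tissues, without the mouse block, singled out 12 probes. Spleen minus thymus was negative at Rps6 probe 7026 (-0.97), Rpl22 probe 15503 (-0.73), Rps9 probe 6665 (-0.63), Rpl35 probe 16343 (-0.57), Rpl13a probe 1179 (-0.53), Rpl14 probe 3534 (-0.45), Rps15a probe 15502 (-0.41), Rps16 probe 19516 (-0.35) and Rps4x probe 6804 (-0.31). It was positive at Rps14 probe 19618 (0.50), Rpl31 probe 13029 (0.45) and Rpl11 probe 19186 (0.41). With the mouse as a block 0 of them passed in limma.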

How the results depend on the processing

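The number of arrays and the absence of separate wild-type arrays limit these counts. With the sign of the Cy3 arrays turned, 0 members passed in spleen and 0 for the difference, the large minus small difference was 0.04, and these spleen means changed sign: Rpl31 -0.061, Rps14 -0.002, Rpl35 -0.07 (probe 7695), -0.05 (18263) and 0.075 (16343), Rps19 0.032, Rps15a 0.058, Rpl22 0.236 and Rpl14 0.016, none past the threshold in limma. In spleen 29 probes passed in the joint fit (7646 of all probes), 10 of 61 genes on gene means (2235 of all genes), 8 with the pool variance added (1689 of all probes), and 10 to 18 when each mouse was left out: 11 without mouse 2 (2351 of all probes) and 10 without mouse 4 (2366). For the difference 7 of 60 genes passed on gene means (1138 of all genes), 1 probe with the pool variance (267 of all probes), 0 with the replicate block that pairs tissues by mouse (0 of all probes), and 0 to 9 when each mouse was left out, with 0 without mouse 3 (10 of all probes) and 0 without mouse 4 (0). The cause of these changes was not tested, beyond the larger variance and fewer mice in some. The other alternatives kept the counts within 1.5 times, the thymus count at 0, and the spread between probes of 1 gene at 0.27 to 0.30.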
